A study of Mus musculus with 24 samples.

Results

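This comparison set the cortex of 5xFAD mice without Plcg2 against the cortex of 5xFAD mice without Trem2, in 12 of the 24 libraries of the study, 6 per knockout. Members were chosen by the genotype in the library name. The Plcg2 knockout group, homozygous and named Plcg2KO here, held 4 males and 2 females, and the Trem2 knockout group (Trem2KO) held 3 males and 3 females. All these mice, and the 6 wild type mice (WT, 3 males and 3 females) whose levels are given beside theirs, carried 5xFAD, a set of human transgenes with mutant amyloid precursor protein that leads to amyloid plaques, and all were 7.5 months old. The remaining 6 libraries came from 5xFAD mice of the same age with 1 deleted copy of Plcg2 (heterozygous knockout, Plcg2HET, 3 males and 3 females), which entered the fit for the shared estimate of spread and are not described. Without them 6047 genes were called between the knockouts, against 2684 with them. No mouse free of 5xFAD was analysed here, and the labels give neither the deleted exons nor litters or sequencing batches. Whole cortex was sequenced, so fewer cells of a type and less RNA per cell cannot be told apart. Mice are named by the code of the labels, a letter for sex and a number.

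TREM2 is a receptor on microglia, the resident macrophages of the brain, that binds lipids and lipoproteins. It signals through the adaptor TYROBP, whose phosphorylated ITAM motif recruits the kinase SYK. PLCG2 is a phospholipase that acts downstream of such ITAM receptors, TREM2 among them, and cleaves a membrane phospholipid into the messengers inositol trisphosphate and diacylglycerol. Around plaques, microglia lower genes of their resting (homeostatic) state and raise genes of a state called disease-associated microglia (DAM), whose second stage depends on TREM2. The comparison addresses where loss of the enzyme and loss of the receptor leave different transcripts in the same amyloid model.

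The promoters of 5 genes on which the results turn are shown here, from 250 bases before to 50 bases after the transcription start in RefSeq's annotation of GRCm38.p6, with matches to 1 motif per gene in capitals. Mt1 and Mt2 are neighbouring metallothionein genes that were both higher in Plcg2KO, and their capitals mark TGCGCNC, 1 form of the core of the metal response element. Other forms of that core were not searched. Itgax and P2ry12 are microglial genes that went opposite ways, and their capitals mark GGAAGT, the core bound by ETS factors such as PU.1. Glb1 is a lysosomal gene that was lower in Plcg2KO, and its capitals mark the E-box CACGTG, which is part of the element bound by the lysosomal regulator TFEB. Motifs were searched on both strands, so that a match on the minus strand appears as its reverse complement.

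Mt1: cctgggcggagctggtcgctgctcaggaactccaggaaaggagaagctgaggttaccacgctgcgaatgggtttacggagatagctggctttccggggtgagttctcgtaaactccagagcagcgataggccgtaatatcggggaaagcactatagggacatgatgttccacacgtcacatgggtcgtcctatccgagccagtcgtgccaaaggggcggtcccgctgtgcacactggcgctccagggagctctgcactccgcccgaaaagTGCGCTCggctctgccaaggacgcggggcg

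Mt2: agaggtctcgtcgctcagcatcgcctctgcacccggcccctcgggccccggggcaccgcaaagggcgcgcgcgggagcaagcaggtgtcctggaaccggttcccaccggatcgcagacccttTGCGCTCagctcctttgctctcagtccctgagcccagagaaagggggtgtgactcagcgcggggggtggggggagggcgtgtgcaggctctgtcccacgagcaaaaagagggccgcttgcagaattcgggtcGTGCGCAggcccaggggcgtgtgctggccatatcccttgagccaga

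Itgax: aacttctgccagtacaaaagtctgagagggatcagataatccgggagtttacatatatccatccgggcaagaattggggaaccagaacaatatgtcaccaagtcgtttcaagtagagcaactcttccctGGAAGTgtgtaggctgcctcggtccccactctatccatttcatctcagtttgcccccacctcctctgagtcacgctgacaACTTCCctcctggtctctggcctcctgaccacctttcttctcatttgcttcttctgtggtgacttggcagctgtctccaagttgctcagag

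P2ry12: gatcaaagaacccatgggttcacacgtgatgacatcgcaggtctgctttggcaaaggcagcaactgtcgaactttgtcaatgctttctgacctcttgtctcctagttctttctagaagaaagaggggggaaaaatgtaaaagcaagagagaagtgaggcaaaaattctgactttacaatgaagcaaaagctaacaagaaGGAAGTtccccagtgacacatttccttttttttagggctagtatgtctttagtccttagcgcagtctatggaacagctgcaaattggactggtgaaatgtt

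Glb1: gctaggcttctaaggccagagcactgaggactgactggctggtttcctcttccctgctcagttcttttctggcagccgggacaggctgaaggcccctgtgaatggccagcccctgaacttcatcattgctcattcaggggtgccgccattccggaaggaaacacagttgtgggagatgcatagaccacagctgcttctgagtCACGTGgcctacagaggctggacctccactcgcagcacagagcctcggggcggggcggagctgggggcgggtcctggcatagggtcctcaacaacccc

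The windows lie at chr8:94178839-94179138 (Mt1, plus strand), chr8:94172368-94172667 (Mt2, plus strand), chr7:128129300-128129599 (Itgax, plus strand), chr3:59262936-59263235 (P2ry12, minus strand) and chr9:114400828-114401127 (Glb1, plus strand). Mt1 held 1 match and Mt2 held 2, and TGCGCNC occurred in 15.4% of the 32851 promoter windows of the annotation and in 25.0% of the 15448 windows of tested genes. Itgax held 2 matches to GGAAGT and P2ry12 held 1, against 23.8% of all windows and 25.8% of those of tested genes with at least 1. Glb1 held 1 CACGTG, which occurred in 7.15% of all windows and 9.31% of those of tested genes. These matches are letters in a window and were not measured as binding sites.

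Transcripts of the deleted genes check the genotypes. Plcg2 (chromosome 8, 117498291 to 117635142, plus strand, mm10) had 0.739 CPM in the lowest, 1.0005 in the median and 1.20 in the highest Plcg2KO mouse, against 9.32, 11.2 and 14.7 CPM in Trem2KO mice (CPM, the count relative to the library total after TMM scaling, n = 6 each). The groups did not overlap, and the Plcg2KO mean was 8.64% of the Trem2KO mean (exact two-sided permutation test on log2(CPM + 0.5), p = 0.00216, the smallest that 6 against 6 can give). In WT mice Plcg2 ranged from 7.73 to 15.2 CPM, so Trem2KO mice kept a level within that range. The table sums the exons of a gene, and residual reads do not show a functional transcript.

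Trem2 (chromosome 17, 48346401 to 48352276, plus strand, mm10) was lower than in WT in both knockouts, and less so in Plcg2KO. It had 14.1, 17.9 and 28.6 CPM in Plcg2KO mice and 4.59, 5.97 and 7.45 CPM in Trem2KO mice (lowest, median and highest of 6), beside 46.5, 80.9 and 119 CPM in WT mice. Every Plcg2KO mouse lay above every Trem2KO mouse and below every WT mouse. The Plcg2KO mean was 317% of the Trem2KO mean, and the log2 fold change was 1.80 (SE 0.17, edgeR's quasi-likelihood test, adjusted p = 3.55e-07; exact permutation p = 0.00216). Tyrobp, the adaptor, had 12.4 to 24.2 CPM in Plcg2KO mice and 13.1 to 28.1 CPM in Trem2KO mice, which overlapped, beside 33.3 to 85.7 CPM in WT mice. Its log2 fold change between the knockouts was -0.13 (SE 0.15, adjusted p = 0.574).

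**Figure D1:**
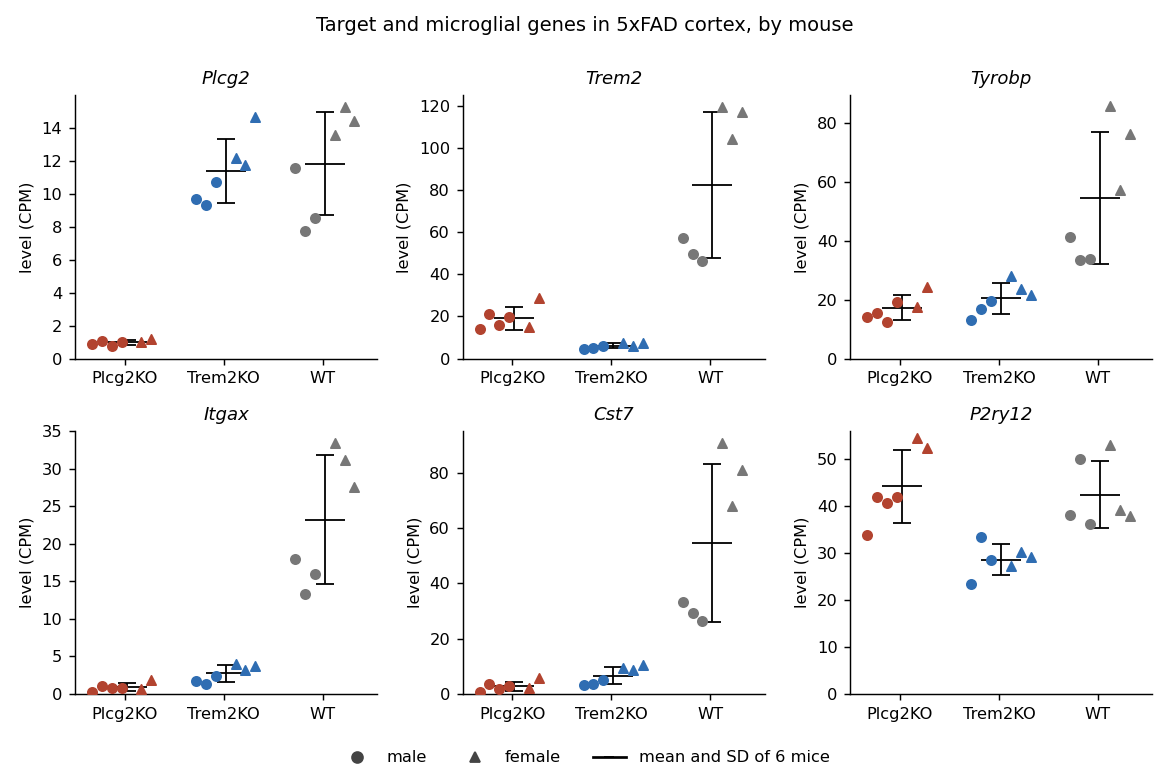
Level in CPM of 6 genes in each mouse of Plcg2KO, Trem2KO and WT 5xFAD cortex; circles are males, triangles females, and the bars give the mean and SD of 6 mice. Plcg2 is near 1 CPM in Plcg2KO mice, Trem2 lies between the Trem2KO and WT levels in Plcg2KO mice, and P2ry12 is higher in every Plcg2KO mouse than in any Trem2KO mouse.

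Of all genes, 2684 of 16316 genes tested were called at an adjusted p under 0.05, 1245 higher in Plcg2KO (7.63%) and 1439 lower (8.82%). Leaving out 1 library gave 769 calls (without Trem2KO M1) to 2796 (without Trem2KO M2), with 1060 without Trem2KO F3, 1142 without Plcg2KO F1, 1319 without Plcg2KO F2 and 1563 without Trem2KO F1. The calls followed the base composition of the gene. Among genes with GC content in the lowest decile (median 40.1%), 486 were higher in Plcg2KO and 5 lower, and in the highest decile (median 60.2%) 1 was higher and 413 were lower. Fold change and GC content had a Spearman correlation of -0.656 across genes, which is a description because genes are not replicates. Within a library, deviation and GC content correlated at -0.586 to -0.296 in the 6 Plcg2KO mice and at -0.083 (M2) to 0.531 in the 6 Trem2KO mice, so the trend and the genotype cannot be told apart. Genes were therefore also fitted with offsets that take the trends with GC content and exon length out of each library, after which the correlation was -0.036. In both fits and the same direction, 340 genes were called higher in Plcg2KO (2.09% of 16258 genes with a GC value) and 321 lower (1.97%), and "called in both fits" refers to these genes below. Of them 16 were higher and 25 lower by over 2-fold without offsets. The levels of Plcg2KO and Trem2KO mice did not overlap in 3075 of the 16316 genes tested. Of the 661 genes called in both fits, 529 were without overlap. Lack of overlap was thus common among such genes, and where given below it is a description and not separate support for a call.

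**Figure D2:**
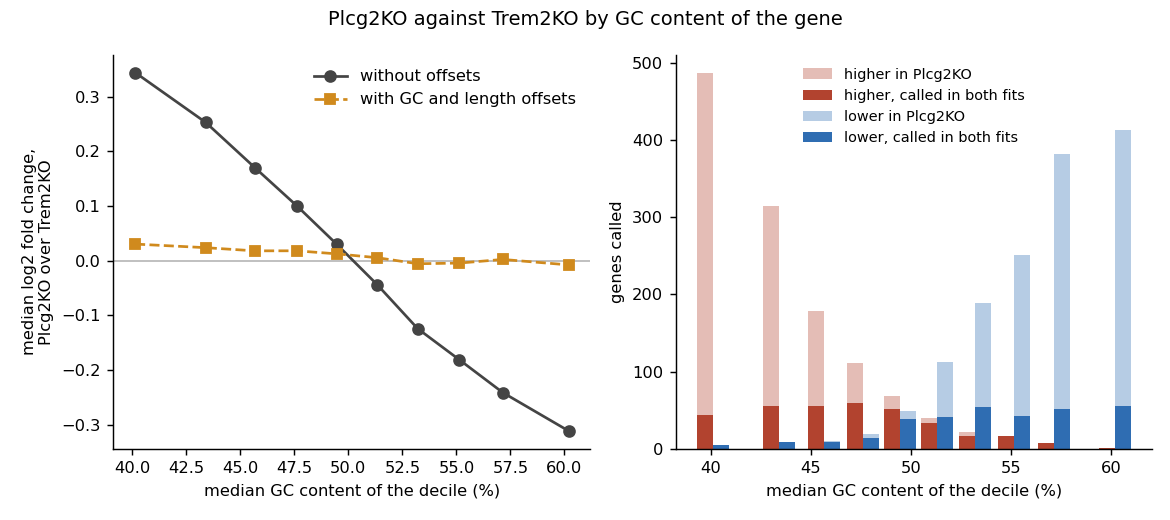
Left, median log2 fold change of Plcg2KO over Trem2KO in each decile of GC content (x axis, median GC in %), without and with GC and length offsets; right, genes called higher or lower in Plcg2KO per decile, with those called in both fits in full colour. Without offsets the median runs from 0.34 in the decile at 40.1% GC to -0.31 in the decile at 60.2%, and with offsets it stays between -0.0077 and 0.0304.

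Total counts were 49422827 to 81487044 in Plcg2KO and 54768477 to 82990818 in Trem2KO, and the ribosomal RNA precursor Rn45s took at most 3.50% of counts in either group. All 24 libraries expressed Xist and Y-linked genes as their labelled sex predicts. Markers of cortical excitatory neurons were abundant, as the labelled tissue requires, at sums of 7515 to 9220 CPM in Plcg2KO mice and 8434 to 8836 CPM in Trem2KO mice. Striatal neuron markers summed to 1207 to 1444 CPM in Plcg2KO mice and 1239 to 1342 CPM in Trem2KO mice, so striatal transcripts were present in both groups at overlapping levels. Of 28 genes of blood and infiltrating leukocytes, Trac, Ighm and Ly6g were not among the genes counted, and 11 passed the filter on low counts. The 4 hemoglobin genes Hba-a1, Hba-a2, Hbb-bs and Hbb-bt had 0 counts in every Plcg2KO and Trem2KO library, so blood content could not be judged from them. Of the 11 genes 0 were called (median 0.48), with sums of 16.4 to 23.3 CPM in Plcg2KO mice and 15.4 to 20.8 CPM in Trem2KO mice.

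Microglial genes were compared by the state they mark. The 20 tested general microglial genes had a median log2 fold change of -0.25, against 0.0043 for all genes tested, and their summed level was 758 to 1188 CPM in Plcg2KO mice, 956 to 1311 CPM in Trem2KO mice and 1349 to 2287 CPM in WT mice. The ranges of the knockouts overlapped. Of these genes 2 were called lower (all genes: 8.82%), Coro1a (-0.47), which binds actin, and Laptm5 (-0.46), a lysosomal membrane protein, and neither was called with offsets. With offsets 1 other gene of the list was lower, and the list median was -0.16, against 0.0105 for all genes. With 1 library left out, 0 to 3 of the list were lower, with 0 without Trem2KO M1 or Plcg2KO F1. The mean log2 level of the 20 genes was 4.61 ± 0.26 in Plcg2KO, 4.90 ± 0.21 in Trem2KO and 5.67 ± 0.39 in WT (SD, n = 6).

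Genes of the second DAM stage that were called in both fits were all lower in Plcg2KO mice. Of 24 tested, 6 were lower and 1 higher without offsets (all genes: 8.82% lower, 7.63% higher). In both fits 4 were lower and 0 higher (all genes: 1.97% and 2.09%). The median was -0.20 (-0.13 with offsets, against 0.0105 for all genes). Itgax (chromosome 7, 128129568 to 128150657, plus strand, mm10), the integrin subunit CD11c, had 0.232, 0.796 and 1.83 CPM in Plcg2KO mice, 1.38, 2.80 and 3.93 CPM in Trem2KO mice and 13.3, 22.8 and 33.4 CPM in WT mice (lowest, median and highest). Plcg2KO F2, at 1.83 CPM, lay above Trem2KO M1 and M2, and every mouse of both knockouts lay below every WT mouse. The log2 fold change was -1.39 (SE 0.22, adjusted p = 0.000765), and -1.32 with offsets. Cst7, the cysteine protease inhibitor cystatin F, had 0.82 to 5.59 CPM in Plcg2KO mice and 3.12 to 10.4 CPM in Trem2KO mice, a log2 difference of -0.99 (adjusted p = 0.0136). With 1 library left out, 3 to 7 genes of the list were lower, the fewest without Plcg2KO F1. The Trem2KO females held the 3 highest Itgax levels of both knockouts, at 3.23 to 3.93 CPM, and Trem2KO males had 1.38 to 2.38 CPM.

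Cd9, a tetraspanin that other glia also express, had 42.6, 55.2 and 77.4 CPM in Plcg2KO mice and 69.4, 91.1 and 114 CPM in Trem2KO mice, a log2 difference of -0.56 (SE 0.13, adjusted p = 0.0099). Cd68, a glycoprotein of macrophage lysosomes, was lower as well (-0.50, adjusted p = 0.0169), with overlapping groups. In the same list Lgals3 (galectin-3) was called lower without offsets (-1.06) and not with them (-0.92, adjusted p = 0.0657), and the lectin receptor Clec7a, which senses beta-glucan, was called in neither fit (-0.62, adjusted p = 0.0955). Spp1 (0.28), Gpnmb (-0.44) and Lpl (0.18) were not called. DAM genes of the first stage numbered 7, of which Ctsd (-0.42), an aspartic protease of lysosomes, was lower without offsets and 0 were called in both fits. Apoe, the main apolipoprotein of the brain, was not called (-0.07, adjusted p = 0.767).

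Homeostatic microglial genes went both ways. Of 24 tested, 7 were higher and 3 lower without offsets (all genes: 7.63% higher, 8.82% lower), with a median of -0.05. In both fits P2ry12, Mertk and Golm1 were higher and Fcrls was lower (all genes: 2.09% and 1.97%). P2ry12 (chromosome 3, 59216271 to 59262831, minus strand, mm10), the ADP receptor that steers microglial processes, had 33.9, 41.9 and 54.5 CPM in Plcg2KO mice, 23.4, 28.8 and 33.5 CPM in Trem2KO mice and 36.2, 38.7 and 53.1 CPM in WT mice. The knockouts did not overlap, and Plcg2KO mice spanned the WT range while Trem2KO mice lay below it. Its log2 fold change was 0.64 (SE 0.12, adjusted p = 0.00283) and 0.35 with offsets (adjusted p = 0.0285). P2ry12 lies within Med12l, and in the fits with offsets its call was lost without Trem2KO M1, F1 or F3 or Plcg2KO M2, F1 or F2 (adjusted p up to 0.104).

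Mertk, a receptor for phagocytosis of dying cells that astrocytes also express, had 38.7, 52.0 and 57.5 CPM in Plcg2KO mice and 34.6, 36.4 and 40.7 CPM in Trem2KO mice (log2 fold change 0.47, SE 0.10, adjusted p = 0.00833), with Plcg2KO M4 below the highest Trem2KO mouse. Golm1, a Golgi membrane protein, had 25.3 to 28.3 CPM in Plcg2KO mice and 19.1 to 24.3 CPM in Trem2KO mice (0.35). Fcrls, an Fc receptor-like gene of mouse microglia, had 29.9, 34.9 and 53.3 CPM in Plcg2KO mice and 45.6, 59.3 and 86.7 CPM in Trem2KO mice (-0.61, SE 0.15, adjusted p = 0.0111). Tmem119 (-0.34), Cx3cr1 (-0.17), Siglech (-0.06) and P2ry13 (-0.06) were not called. With 1 library left out, 3 to 6 homeostatic genes were higher, the fewest without Trem2KO M1, F1 or F3 or Plcg2KO M3.

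Microglial levels were also set against the mean log2 level of the 20 general microglial genes in the same mouse, for 8 genes chosen after their values were seen, so these are descriptions without a test. On that scale Itgax was at -4.21 ± 0.33 in Plcg2KO and -3.28 ± 0.31 in Trem2KO (SD, n = 6), a difference of -0.92. Cst7 differed by -0.86, Cd22 by -0.66, Ptpn6 by -0.43 and Cd9 by -0.38. P2ry12 was at 0.86 ± 0.22 in Plcg2KO and -0.04 ± 0.26 in Trem2KO, a difference of 0.90, and Mertk differed by 0.72. Tyrobp differed by 0.05, less than its SD in either group (0.14 in Plcg2KO and 0.21 in Trem2KO). This scale was computed from levels without the GC and length offsets, so the GC trend is not taken out of these differences. In the fits, the log2 fold change between the knockouts was 0.64 without and 0.35 with offsets for P2ry12. For Mertk it was 0.47 and 0.43, and for Itgax -1.39 and -1.32.

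Signalling genes around the deleted genes were read against the shares of all genes, 7.63% higher and 8.82% lower without offsets and 2.09% higher and 1.97% lower in both fits. Of 23 kinases and adaptors of ITAM signalling 1 was lower without offsets and 0 were called in both fits, with Syk at -0.28 (adjusted p = 0.172). Inhibitory phosphatases and receptors, which oppose ITAM signals, were called lower in both fits in 2 of 13. Cd22, a sialic acid receptor with inhibitory motifs, had 0.267, 0.573 and 1.502 CPM in Plcg2KO mice and 0.965, 1.72 and 2.88 CPM in Trem2KO mice (-1.12, SE 0.26, adjusted p = 0.0107). Ptpn6, the phosphatase SHP-1, had 3.32, 5.38 and 7.49 CPM in Plcg2KO mice and 6.68, 9.39 and 11.9 CPM in Trem2KO mice (-0.66, SE 0.16, adjusted p = 0.0121). For both genes the groups overlapped, and with offsets the Ptpn6 call was lost in 7 of the 12 fits that left out 1 library. The WT median was 3.18 CPM for Cd22 and 19.7 CPM for Ptpn6, above both knockout medians.

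Other phospholipase C genes were examined for a change beside the lost isoform. Of 13 tested, 2 were higher and 5 lower without offsets (2 lower without Trem2KO M1, Trem2KO F3 or Plcg2KO F1), and in both fits Plcg1 was lower. Among all genes 7.63% were higher and 8.82% lower without offsets, and 2.09% and 1.97% in both fits. The median of the phospholipase C list was 0.021, and 0.0071 with offsets. Of 7 Fc receptor genes Fcrls was lower in both fits. Plcg1, the isoform closest to Plcg2 and used by receptor tyrosine kinases and T cells, had 49.0, 58.9 and 60.8 CPM in Plcg2KO mice, 69.6, 76.7 and 82.3 CPM in Trem2KO mice and 51.6, 62.0 and 71.5 CPM in WT mice. The knockouts did not overlap, and the Plcg2KO median was nearer the WT median than the Trem2KO median was (-0.43, SE 0.08, adjusted p = 0.00283, and -0.27 with offsets). Plcg1 overlaps Zhx3 in the annotation. Among TREM family genes and their neighbours, 4 of 10 passed the filter on low counts, and Treml2 was lower without offsets (-0.80) and not with them (adjusted p = 0.167).

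Immune effector genes were taken list by list. Among chemokines and their receptors, Ccl9 was lower in both fits, at 2.09, 2.31 and 2.82 CPM in Plcg2KO mice and 3.13, 3.77 and 4.57 CPM in Trem2KO mice (-0.60, SE 0.18, adjusted p = 0.0254). Its call was lost without Trem2KO M1, M3 or F3 or Plcg2KO F1 or F2 (adjusted p up to 0.0739). Itgb2, the beta chain of the complement receptors CR3 and CR4, was lower in both fits at -0.42 (SE 0.09, adjusted p = 0.00829), with overlapping groups. With offsets its call was lost in 10 of the 12 fits that left out 1 library. C4b, a complement component of glia, was lower without offsets (-0.99) and not with them (-0.80, adjusted p = 0.122). Without offsets 1 of 29 interferon-response genes was higher, and 1 of 28 Toll-like receptor and cytokine genes was lower. Of 13 MHC class I genes 2 were lower without offsets, and of 8 MHC class II genes 0 were called. In both fits 0 of these were called. Among all genes 7.63% were higher and 8.82% lower without offsets, and 2.09% and 1.97% in both fits. The median of the interferon-response list was -0.18 (-0.25 with offsets), and 1 of its genes was lower with offsets only. Without Trem2KO F3 or Plcg2KO F1, 0 MHC class I genes were lower. Slamf9, a receptor of myeloid cells, and Lag3, an inhibitory immune receptor, were among the 12 largest decreases, besides Plcg2, of genes called in both fits without overlap at an average of at least 1 log2 CPM, described with the others below.

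Lysosomal genes were called lower more often than higher. Of 40 tested, 14 were lower and 1 was higher without offsets (all genes: 8.82% lower, 7.63% higher), with a median of -0.24. Cd68, Manba, Man2b1 and Glb1 were lower in both fits (all genes: 1.97%), and the median with offsets was -0.15. Man2b1, a lysosomal alpha-mannosidase, had 61.8, 68.9 and 75.0 CPM in Plcg2KO mice and 77.6, 94.1 and 113 CPM in Trem2KO mice (-0.44, SE 0.10, adjusted p = 0.01). Glb1, the lysosomal beta-galactosidase whose promoter is printed above, had 23.8, 26.5 and 28.6 CPM in Plcg2KO mice, 31.0, 36.0 and 41.0 CPM in Trem2KO mice and 26.4, 32.6 and 37.2 CPM in WT mice (-0.42, SE 0.10, adjusted p = 0.0123), and it overlaps Tmppe. In both genes the groups did not overlap. Manba, a beta-mannosidase, was at -0.36 (adjusted p = 0.0343), and Gaa (-0.46), Grn (-0.39) and Psap (-0.29) were lower without offsets only. With 1 library left out, 2 to 13 were lower, the fewest without Plcg2KO F1.

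The E-box CACGTG was found in the windows of 10 of 30 lysosomal genes with a promoter entry, against 11.1% of the 12170 tested genes with one. Of the 14 lysosomal genes called lower without offsets, 12 had an entry and 6 held the motif: Arsa, Ctsa, Ctsd, Ctsf, Gaa and Glb1. Of these 6 only Glb1 was called in both fits. Tfeb, the regulator that binds the element holding this E-box and lies within 2 Mb of Trem2, had a mean of 5.57 CPM in Plcg2KO mice and 9.26 CPM in Trem2KO mice (-0.70, adjusted p = 0.0169, and 0.0488 with offsets). Whether the motif or Tfeb bears on the levels of these genes was not tested.

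Lipid-handling genes were called lower in 8 of 36 and higher in 0 without offsets (all genes: 8.82% and 7.63%). In both fits 3 were lower (all genes: 1.97%). Acaca, which makes malonyl-CoA for fatty acid synthesis, had 79.2, 88.0 and 91.5 CPM in Plcg2KO mice, 93.6, 100.1 and 110.1 CPM in Trem2KO mice and 72.1, 80.2 and 89.5 CPM in WT mice. The knockouts did not overlap, and the Plcg2KO median lay inside the WT range (-0.22, SE 0.07, adjusted p = 0.0463). Fasn (-0.59), Srebf1 (-0.56), Srebf2 (-0.43) and Lrp1 (-0.36) were lower without offsets only. Plin4, a lipid droplet protein, was not called (0.54, adjusted p = 0.264), and Plcg2KO mice ranged from 3.58 to 16.4 CPM. With 1 library left out, 2 to 8 lipid genes were lower, the fewest without Trem2KO M1.

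**Figure D3:**
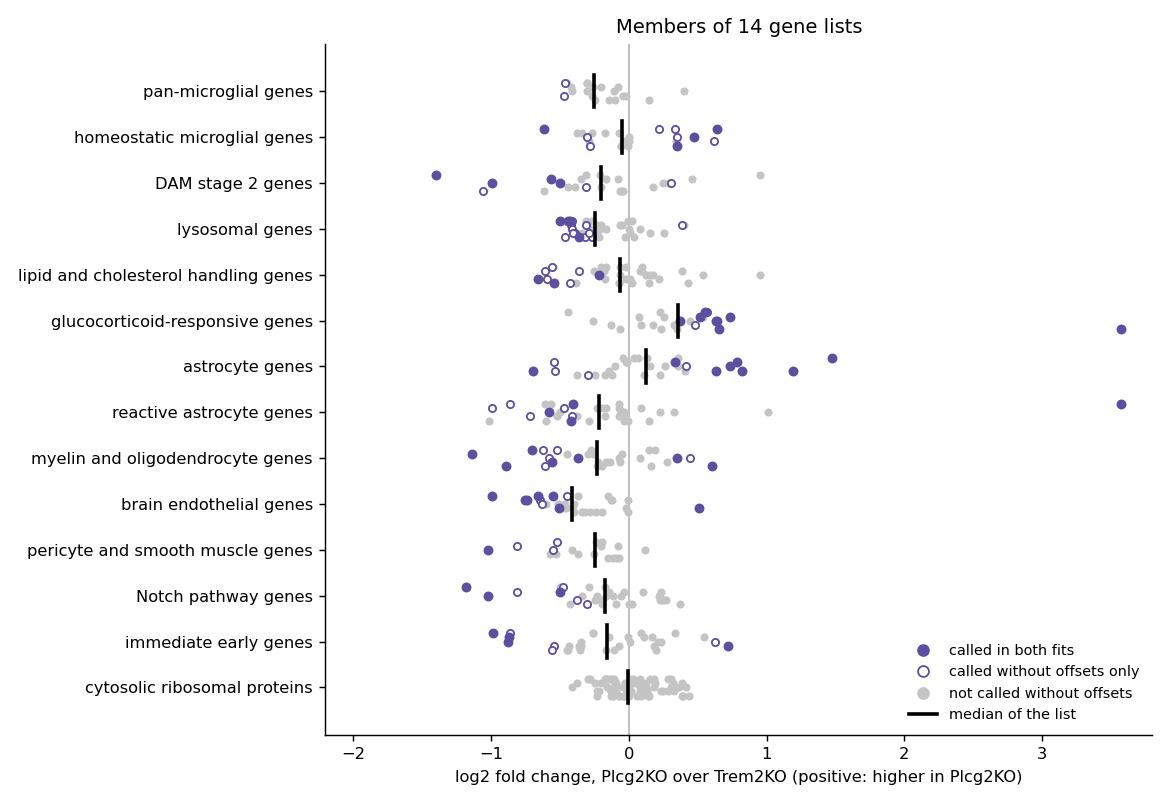
Log2 fold change of Plcg2KO over Trem2KO (x axis) for each tested member of 14 gene lists; filled points were called in both fits, open points without offsets only, grey points were not called without offsets, and black bars are list medians. The glucocorticoid-responsive list has a median of 0.36 and 0 members called lower, the brain endothelial list a median of -0.41, and 0 of 76 cytosolic ribosomal proteins were called.

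Of the 12 largest increases, besides Trem2, that passed both fits without overlap at an average of at least 1 log2 CPM, the largest was in an astrocyte gene. Etnppl (chromosome 3, 130617448 to 130635750, plus strand, mm10), which breaks down phosphoethanolamine, had 41.4, 49.4 and 67.0 CPM in Plcg2KO mice, 14.8, 17.2 and 21.8 CPM in Trem2KO mice and 13.0, 17.3 and 25.0 CPM in WT mice. The groups did not overlap, as the rule for this set required, and the Trem2KO range lay within the WT range. The log2 fold change was 1.48 (SE 0.17, adjusted p = 7.35e-06) and 1.30 with offsets. Fmo2, a flavin-containing monooxygenase, had 3.72, 6.84 and 8.55 CPM in Plcg2KO mice, 1.90, 2.79 and 4.04 CPM in Trem2KO mice and 1.61, 2.03 and 2.39 CPM in WT mice (1.19, SE 0.18, adjusted p = 0.000581). The highest Trem2KO mouse, F2, lay above the lowest Plcg2KO mouse, M4.

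Of 32 astrocyte genes 8 were higher and 4 lower without offsets (all genes: 7.63% higher, 8.82% lower), with a median of 0.12. In both fits 7 were higher and 1 lower (all genes: 2.09% and 1.97%). Dio2, the deiodinase that activates thyroid hormone in astrocytes, had 65.2, 77.6 and 88.8 CPM in Plcg2KO mice and 36.8, 46.4 and 49.6 CPM in Trem2KO mice (0.79, SE 0.16, adjusted p = 0.00499). Hapln1, a link protein of hyaluronan in the extracellular matrix, had 21.3, 22.3 and 29.3 CPM in Plcg2KO mice and 10.7, 13.3 and 15.97 CPM in Trem2KO mice (0.82, SE 0.13, adjusted p = 0.00105). In both genes the groups did not overlap, which the rule for the largest changes required. Gjb6, the connexin 30 gap junction protein, was higher at 0.34 (adjusted p = 0.0238), and the metallothioneins are given with the glucocorticoid list. Agt, angiotensinogen, which astrocytes secrete, was the 1 member lower in both fits, at 16.9 to 26.1 CPM in Plcg2KO mice and 30.1 to 38.2 CPM in Trem2KO mice (-0.70, adjusted p = 0.0215). Slc1a2 (0.41), Aldh1l1 (-0.10), Gja1 (0.16) and Aqp4 (0.07) were not called without offsets, and Aqp4 was lower with them (-0.21, adjusted p = 0.0337). When each library was omitted in turn, 6 to 9 astrocyte genes were higher and 0 to 4 lower, with 0 lower without Trem2KO M1 or Plcg2KO F1. The summed astrocyte markers were 12156 to 13039 CPM in Plcg2KO mice and 10416 to 11947 CPM in Trem2KO mice; their part in the single genes was not tested.

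Reactive astrocyte genes went mostly the other way. Of 34 tested, 8 were lower and 1 higher without offsets (all genes: 8.82% lower, 7.63% higher), with a median of -0.21. In both fits 3 were lower and 1 higher (all genes: 1.97% and 2.09%). Gfap, the intermediate filament of reactive astrocytes, had 301, 527 and 1113 CPM in Plcg2KO mice and 756, 1165 and 1783 CPM in Trem2KO mice; it was lower without offsets (-0.86, adjusted p = 0.0162) and not with them (-0.66, adjusted p = 0.0798). S1pr3, a receptor for sphingosine-1-phosphate, was lower in both fits at 6.84 to 8.82 CPM in Plcg2KO mice and 9.82 to 12.2 CPM in Trem2KO mice (-0.40, SE 0.10, adjusted p = 0.0158), as were the hyaluronan receptor Cd44 (-0.42) and Tm4sf1 (-0.58). The member that was higher is Lcn2, lipocalin-2, at 0.238 to 2.30 CPM in Plcg2KO mice and 0.0241 to 0.182 CPM in Trem2KO mice (3.57, SE 0.58, adjusted p = 0.00107). Both Lcn2 levels are low, and the groups did not overlap. When each library was omitted in turn, 2 to 9 reactive genes were lower, the fewest without Trem2KO M1.

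Glucocorticoid-responsive genes, which the glucocorticoid receptor induces in many cell types, were called higher and never lower. Of 24 tested, 10 were higher and 0 lower without offsets (all genes: 7.63% higher, 8.82% lower). In both fits 8 were higher and 0 lower (all genes: 2.09% and 1.97%). The median was 0.36 (0.48 with offsets). Tsc22d3, the leucine zipper protein GILZ, had 63.3, 82.7 and 104 CPM in Plcg2KO mice, 43.5, 55.9 and 63.0 CPM in Trem2KO mice and 49.3, 51.5 and 55.2 CPM in WT mice (0.64, SE 0.12, adjusted p = 0.00283). The lowest Plcg2KO mouse, F1, lay just above the highest Trem2KO mouse, F1. Zbtb16, a zinc finger repressor, was higher at 0.52 (adjusted p = 0.0171), the transcription factor Klf9 at 0.56 (adjusted p = 0.00395) and the sulfotransferase Sult1a1 at 0.66 (adjusted p = 0.0043). Cdkn1a, the cell cycle inhibitor p21, was at 0.37 (adjusted p = 0.0493).

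Metallothioneins, small proteins that bind zinc and copper, belong to both the astrocyte and the glucocorticoid list. Mt2 had 112, 118 and 173 CPM in Plcg2KO mice, 55.7, 81.8 and 106 CPM in Trem2KO mice and 65.5, 75.1 and 125 CPM in WT mice (0.73, SE 0.20, adjusted p = 0.0175). Mt1 had 157, 163 and 258 CPM in Plcg2KO mice and 99.5, 126 and 135 CPM in Trem2KO mice (0.63, adjusted p = 0.0115). The groups did not overlap in either gene, which the rule for the largest changes required of Mt2. Plcg2KO M2 and F2 held the 2 highest Mt2 levels. Without Trem2KO M1 the Mt2 call was lost (adjusted p = 0.0595). Sgk1, a kinase of the same list, was higher without offsets only (0.57), while Fkbp5, a chaperone of the glucocorticoid receptor, was called with offsets only (0.33 without them, adjusted p = 0.0996). Per1 (-0.26) and Dusp1 (-0.44) were not called. When each library was omitted in turn, 5 to 11 members were higher without offsets, the fewest without Trem2KO M1, and 9 to 11 with them.

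**Figure D4:**
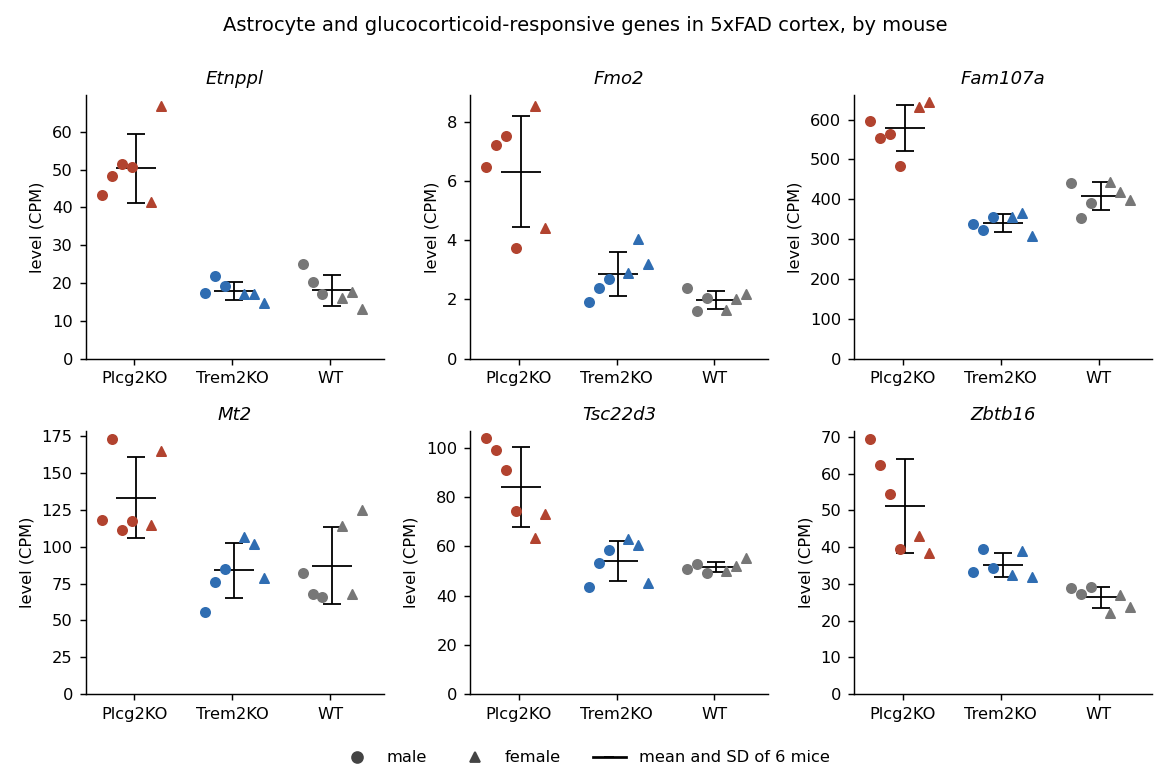
Level in CPM of 3 genes of astrocytes (Etnppl, Fmo2 and Fam107a) and 3 glucocorticoid-responsive genes (Mt2, Tsc22d3 and Zbtb16) in each mouse, drawn as in the plot of microglial genes. Etnppl, Fam107a, Mt2 and Tsc22d3 do not overlap between Plcg2KO and Trem2KO mice, which the rule for the largest changes required of all but Tsc22d3. Etnppl in Trem2KO mice, at 14.8 to 21.8 CPM, lies within the WT range.

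The other largest increases that passed both fits without overlap spanned several functions. Fam107a, an actin-associated protein that glucocorticoids induce in brain, had 484, 581 and 644 CPM in Plcg2KO mice, 307, 346 and 366 CPM in Trem2KO mice and 353, 408 and 444 CPM in WT mice (0.78, SE 0.08, adjusted p = 9.14e-07). Prex2, an exchange factor for Rac, had 66.5 to 76.5 CPM in Plcg2KO mice and 37.3 to 45.2 CPM in Trem2KO mice (0.79). Cd38, an enzyme that consumes NAD, had 4.03 to 5.66 CPM in Plcg2KO mice and 2.21 to 3.08 CPM in Trem2KO mice (0.90, SE 0.19, adjusted p = 0.00687). Further members of this set were Luzp2 (0.85), Hrsp12 (0.75), which removes reactive imines, D3Ertd751e (0.74), 4833422C13Rik (0.76) and Gm5089 (1.24). With offsets the log2 fold changes were 0.80 for Fam107a, 0.46 for Prex2, 0.64 for Cd38 and 0.50 for Luzp2. They were 0.42 for Hrsp12 and D3Ertd751e, 0.63 for 4833422C13Rik and 1.07 for Gm5089. The ranking by size and the lack of overlap rest on levels without offsets. Gm5089 lies within Clybl, and 4833422C13Rik overlaps Ssbp2 and Acot12. The Fam107a levels of WT mice lay below every Plcg2KO mouse, and 3 of 6 Trem2KO mice lay below the WT range.

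The 12 largest decreases, besides Plcg2, that passed both fits without overlap at this level held 2 vascular or Notch genes, 2 immune receptors and several matrix or secreted proteins. Lag3 had 6.26, 8.75 and 12.9 CPM in Plcg2KO mice, 13.8, 19.4 and 27.5 CPM in Trem2KO mice and 17.2, 20.0005 and 27.7 CPM in WT mice (-0.995, SE 0.14, adjusted p = 0.00032). Slamf9 had 0.876 to 2.88 CPM in Plcg2KO mice and 3.50 to 5.58 CPM in Trem2KO mice (-1.08). Naprt, which makes NAD from nicotinic acid, had 2.27 to 3.77 CPM in Plcg2KO mice and 5.51 to 8.05 CPM in Trem2KO mice (-1.12, SE 0.23, adjusted p = 0.00507). For Lag3 and Naprt every Plcg2KO mouse lay below every WT mouse too. Col11a2, a fibrillar collagen chain, was at -0.97, Lama5, a laminin chain, at -0.96, Megf6 at -0.95, Bfsp2, an intermediate filament protein known from the lens, at -0.99, Scarf2, a scavenger receptor-like protein, at -1.03, and Sfrp5, a secreted inhibitor of Wnt ligands, at -0.91. With offsets Lag3 was at -0.69, Naprt at -0.82, Col11a2 at -0.66, Lama5 at -0.68 and Megf6 at -0.65. Bfsp2 was then at -0.77, Scarf2 at -0.67, Sfrp5 at -0.62 and Slamf9 at -1.12.

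Vascular genes were called lower more often than higher. Of 31 brain endothelial genes, 9 were lower and 1 higher without offsets (all genes: 8.82% lower, 7.63% higher). In both fits 6 were lower and 1 higher (all genes: 1.97% and 2.09%). The median was -0.41 (-0.35 with offsets). Tie1, an orphan receptor tyrosine kinase of endothelium, had 2.98, 3.83 and 5.32 CPM in Plcg2KO mice, 5.32, 7.37 and 11.1 CPM in Trem2KO mice and 5.64, 6.196 and 9.21 CPM in WT mice (-0.99, SE 0.22, adjusted p = 0.00908). Tek, the angiopoietin receptor TIE2, had 4.22, 5.27 and 6.02 CPM in Plcg2KO mice, 5.91, 8.86 and 10.3 CPM in Trem2KO mice and 6.46, 8.50 and 14.0 CPM in WT mice (-0.74, SE 0.17, adjusted p = 0.0111). In both receptors the Trem2KO median lay inside the WT range and the Plcg2KO mice lay below it.

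Kdr, the VEGF receptor 2, was lower at 4.06 to 6.11 CPM in Plcg2KO mice and 7.00 to 8.51 CPM in Trem2KO mice (-0.66, adjusted p = 0.015), as were Ptprb (-0.51), a phosphatase that acts on TIE2, the organic anion transporter Slco1a4 (-0.55) and Itm2a (-0.75). Mfsd2a, the lipid transporter of the blood-brain barrier, was the member that was higher (0.51, adjusted p = 0.018). Cldn5 (-0.64), Eng (-0.63) and Pecam1 (-0.45) were lower without offsets only, and Slc2a1 (-0.12) and Vwf (-0.19) were not called. Summed endothelial markers were 444 to 532 CPM in Plcg2KO mice, 526 to 751 CPM in Trem2KO mice and 482 to 760 CPM in WT mice, and summed pericyte and smooth muscle markers were 186 to 221 CPM in Plcg2KO mice and 243 to 294 CPM in Trem2KO mice. The part of these sums in the single genes was not tested. When each library was omitted in turn, 5 to 11 endothelial genes were lower, the fewest without Trem2KO M1 or F3.

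Of 18 mural cell genes (pericytes and smooth muscle) 4 were lower without offsets (all genes: 8.82%). Heyl, a transcription factor induced by Notch in mural cells, was lower in both fits (all genes: 1.97%). It had 3.08, 4.52 and 4.99 CPM in Plcg2KO mice, 7.48, 8.37 and 10.5 CPM in Trem2KO mice and 4.96, 6.16 and 7.44 CPM in WT mice (-1.02, SE 0.18, adjusted p = 0.00226). The Plcg2KO mice were lowest and the Trem2KO mice highest, with overlap only between Plcg2KO and WT. When each library was omitted in turn, 2 to 4 genes of the list were lower, the fewest without Trem2KO M1 or F3 or Plcg2KO M1. Pdgfrb (-0.52) and Notch3 (-0.81, adjusted p = 0.0521 with offsets) were lower without offsets only.

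Among 33 Notch pathway genes 7 were lower and 0 higher without offsets, against 8.82% and 7.63% of all genes (median -0.17, and 0.02 with offsets). Heyl and 2 ligands were lower in both fits (all genes: 1.97%). Dll4, the endothelial ligand, had 0.517, 0.820 and 1.28 CPM in Plcg2KO mice and 1.27, 1.89 and 2.32 CPM in Trem2KO mice (-1.18, SE 0.21, adjusted p = 0.00227), with Plcg2KO F2 just above the lowest Trem2KO mouse, F2. Jag1, the other ligand, was at -0.50 (adjusted p = 0.0291). Over the fits that omitted a library, 3 to 9 Notch genes were lower, the fewest without Trem2KO M1. Notch1 (-0.25), Hes1 (0.10) and Hey1 (0.00) were not called. Dll4 overlaps Gm14207 in the annotation.

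Matrix genes included several of the vessel wall. Of 38 collagen and matrix genes 7 were lower and 1 higher without offsets (all genes: 8.82% lower, 7.63% higher). In both fits Hspg2, Agrn, Lama4 and Mmp12 were lower and Timp3 was higher (all genes: 1.97% and 2.09%). Agrn, the proteoglycan agrin, had 89.0, 95.4 and 103 CPM in Plcg2KO mice and 118, 132 and 155 CPM in Trem2KO mice (-0.53, SE 0.11, adjusted p = 0.00611). Hspg2, the basement membrane proteoglycan perlecan, had 3.50 to 4.70 CPM in Plcg2KO mice and 6.08 to 9.57 CPM in Trem2KO mice (-0.84, SE 0.20, adjusted p = 0.0113). In both proteoglycans the groups did not overlap, and with offsets the Hspg2 call was lost in 9 of the 12 fits that left out 1 library. Over the fits that omitted a library, 3 to 7 matrix genes were lower, the fewest without Trem2KO F3. Mmp12, a macrophage metalloprotease, was at most 0.0939 CPM in Plcg2KO mice and 0.103 to 0.449 CPM in Trem2KO mice. Among 20 meningeal fibroblast genes 3 were lower without offsets (1 without Trem2KO F3 or Plcg2KO F1). Slc22a6, an organic anion transporter, was lower in both fits (-0.54, SE 0.14, adjusted p = 0.0131). Its mean was 9.45 CPM in Plcg2KO, 13.6 CPM in Trem2KO and 8.17 CPM in WT mice. Of 15 border-associated macrophage genes Stab1 was lower without offsets (-0.62) and 0 were called in both fits.

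**Figure D5:**
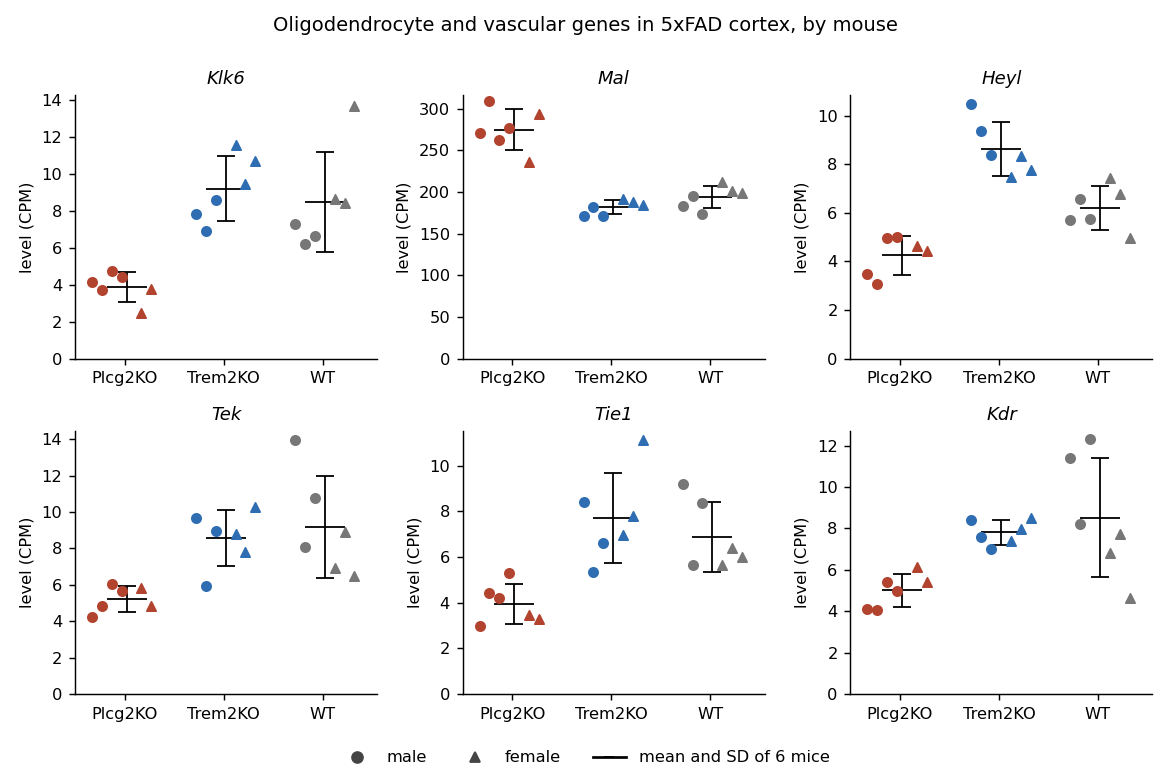
Level in CPM of Klk6 and Mal (oligodendrocytes) and of Heyl, Tek, Tie1 and Kdr (vessels) in each mouse, drawn as in the plot of microglial genes. Klk6, Heyl, Tie1 and Kdr are lower, and Mal is higher, in each Plcg2KO mouse than in any Trem2KO mouse. For Tie1 the margin is narrow, with 5.319 CPM in the highest Plcg2KO mouse and 5.322 CPM in the lowest Trem2KO mouse. The rule for the largest changes required the lack of overlap of Klk6, Heyl and Tie1.

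Oligodendrocyte genes split. Of 30 tested, 3 were higher and 9 lower without offsets (all genes: 7.63% higher, 8.82% lower), with a median of -0.23. In both fits 2 were higher and 5 lower (all genes: 2.09% and 1.97%). Klk6, a secreted serine protease of oligodendrocytes, had 2.46, 3.98 and 4.72 CPM in Plcg2KO mice, 6.94, 9.04 and 11.6 CPM in Trem2KO mice and 6.21, 7.87 and 13.7 CPM in WT mice (-1.14, SE 0.19, adjusted p = 0.00113). Mal, a proteolipid of compact myelin, had 237, 274 and 309 CPM in Plcg2KO mice, 171, 183 and 192 CPM in Trem2KO mice and 174, 197 and 212 CPM in WT mice (0.60, SE 0.08, adjusted p = 0.000113). For both genes the Plcg2KO mice lay outside the WT range and the Trem2KO median lay inside it.

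Mobp, another structural myelin gene, was higher (0.35, adjusted p = 0.0153), while Mag, the myelin-associated glycoprotein, was lower at 120 to 225 CPM in Plcg2KO mice and 289 to 370 CPM in Trem2KO mice (-0.70, adjusted p = 0.0131). Qdpr, which recycles tetrahydrobiopterin, was at -0.56 and Aspa, which cleaves N-acetylaspartate, at -0.37. Mbp, myelin basic protein, was not called (-0.13). Sox10 (-0.58) and Myrf (-0.52), transcription factors of the lineage, were lower without offsets only. Over the fits that omitted a library, 5 to 9 genes of the list were lower, the fewest without Trem2KO M1 or F3. Of 15 disease-associated oligodendrocyte genes, Cdkn1a was higher and Klk6 and Cd9 were lower in both fits, and of 14 precursor genes 0 were called in both fits. Summed oligodendrocyte markers overlapped, at 6568 to 7814 CPM in Plcg2KO mice and 7207 to 8444 CPM in Trem2KO mice.

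Neuronal markers were counted against 7.63% higher and 8.82% lower among all genes without offsets. Of 21 excitatory neuron genes 2 were higher and 1 lower without offsets, and of 28 inhibitory neuron genes 3 were higher, with 0 called in both fits in either list. With 1 library left out, 1 to 2 excitatory genes were higher, and 0 to 4 inhibitory genes, with 0 without Trem2KO M1. Of 15 thalamic and hippocampal genes 0 were called. Six3, a transcription factor of striatal neurons, was higher in both fits at 15.8, 16.6 and 21.2 CPM in Plcg2KO mice and 9.99, 13.6 and 14.6 CPM in Trem2KO mice (0.41, SE 0.13, adjusted p = 0.0363). Its call was lost without Trem2KO M1 or F3 or Plcg2KO M1, F1 or F2 (adjusted p up to 0.122). Immediate early genes, which activity induces, were lower in 6 and higher in 2 of 32 without offsets. Over the fits that omitted a library, 2 to 7 were lower, the fewest without Trem2KO M1. In both fits Ier2, Btg2 and Cyr61 were lower and Homer1 was higher. Homer1, a scaffold of the postsynaptic density, had 135, 140 and 163 CPM in Plcg2KO mice, 77.6, 84.1 and 94.9 CPM in Trem2KO mice and 108, 118 and 163 CPM in WT mice (0.72, SE 0.14, adjusted p = 0.00386), and 0.35 with offsets. Ier2 had 4.86 to 7.84 CPM in Plcg2KO mice, 8.68 to 17.3 CPM in Trem2KO mice and 5.38 to 11.1 CPM in WT mice (-0.88, SE 0.19, adjusted p = 0.00731). Arc (-0.45), Egr1 (0.23) and Fosb (0.01) were not called.

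Of 21 genes tied to amyloid and the transgenes, 1 was higher and 5 lower without offsets (2 lower without Trem2KO M1, Trem2KO F3 or Plcg2KO F2), and 2 were lower in both fits. Among all genes 7.63% were higher and 8.82% lower without offsets, and 1.97% were lower in both fits. The list median was -0.09, and 0.0052 with offsets against 0.0105 for all genes. App (-0.01) and Thy1 (-0.16) were not called; how reads of the human transgenes were counted was not stated by the sources used. Abca7, a lipid transporter, had 11.0, 13.0 and 15.7 CPM in Plcg2KO mice, 19.4, 20.6 and 28.7 CPM in Trem2KO mice and 15.6, 20.7 and 25.0 CPM in WT mice (-0.78, SE 0.15, adjusted p = 0.00386). Bace2, a homologue of the beta-secretase, had 3.37 to 4.68 CPM in Plcg2KO mice and 5.20 to 6.57 CPM in Trem2KO mice (-0.48, SE 0.11, adjusted p = 0.0111). In both genes the knockouts did not overlap. Abca7 overlaps the small RNA gene Bc1.

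Of 76 cytosolic ribosomal proteins 0 were called, against 7.63% higher and 8.82% lower among all genes. Of 74 nuclear subunits of the respiratory complexes 2 were higher and 1 lower, and Atp5j, a subunit of the ATP synthase that overlaps Gabpa, was higher in both fits (0.37, SE 0.12, adjusted p = 0.0418), a call lost without Trem2KO M1, M2, F1 or F3 or Plcg2KO M1, M4, F1 or F2 (adjusted p up to 0.119). Among 30 heat shock and chaperone genes 2 were higher and 0 were called in both fits. Of 18 circadian clock genes Ciart, a repressor of the clock, was lower in both fits at 23.2 to 38.9 CPM in Plcg2KO mice and 36.2 to 47.1 CPM in Trem2KO mice (-0.49, SE 0.12, adjusted p = 0.0151). In WT mice Ciart had 21.1 to 28.8 CPM, below every Trem2KO mouse. Per1 (-0.26), Arntl (0.26) and Per2 (0.46) were not called without offsets, and Per2 was higher with them (0.62, adjusted p = 0.0266). Ttr, the transport protein transthyretin, made in choroid plexus, had 0.243 to 5.68 CPM in Plcg2KO mice and 0.125 to 0.636 CPM in Trem2KO mice (2.54, SE 0.59, adjusted p = 0.01), while the other 13 tested choroid plexus and ependymal genes were not called.

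A knockout line can carry a segment of flanking chromosome from its founder line, so neighbours of both targets were examined. Within 2 Mb of Plcg2, 1 of 25 tested genes was higher and 3 were lower, with a median of 0.024, and 0 were called in both fits. Within 2 Mb of Trem2, 1 of 51 was higher and 10 were lower, with a median of -0.17 that was 0.01 with offsets. Among all genes 7.63% were higher and 8.82% lower without offsets. Ttbk1, a kinase that phosphorylates tau, and Tfeb were lower there in both fits, with Ttbk1 at a mean of 76.8 CPM in Plcg2KO mice and 114 CPM in Trem2KO mice (-0.62, adjusted p = 0.0128). In WT mice the means were 8.79 CPM for Tfeb and 83.5 CPM for Ttbk1. Whether flanking sequence from the founder lines bears on these values was not tested.

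Sex entered the main fit and the fit with offsets as a term because the groups differ in their sexes. The difference between the knockouts was called to differ between females and males in 0 of 16316 genes (0%) by edgeR's quasi-likelihood test, with 415 at an unadjusted p under 0.05, so sex-dependent differences were not detectable at 2 to 4 mice per genotype and sex. Klk6 had the smallest such p among the 59 genes of the naming rule (female minus male -0.88, SE 0.32, unadjusted p = 0.0115, adjusted p = 0.9997), with Plcg2KO females at 2.46 and 3.79 CPM, Plcg2KO males at 3.71 to 4.72 CPM, Trem2KO females at 9.47 to 11.6 CPM and Trem2KO males at 6.94 to 8.61 CPM. With males alone 11 genes were called between the knockouts and with females alone 6.

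How far single calls rested on 1 library was followed for the 59 genes, 58 of them called, of which 13 overlap the span of another gene, so that their reads may be shared. Without offsets, leaving out 1 library ended the call of Atp5j, Ccl9, Six3, Mt2 and S1pr3 at least once, and of these Mt2 and S1pr3 were lost only without Trem2KO M1. With offsets 38 of the 58 were called in each of the 12 fits that left out 1 library, among them Etnppl, Fam107a, Mt2, Itgax, Lag3, Klk6, Heyl and Mal. The other 20 were lost at least once, among them Agrn, Atp5j, Ccl9, Cd22, Cd38, Glb1, Hspg2, Ier2, Itgb2, Lama5, Man2b1, P2ry12, Ptpn6, S1pr3, Sfrp5, Six3, Slc22a6, Tie1 and Ttr, with an adjusted p of at most 0.135 (Ier2). The calls of Itgb2 and S1pr3 were lost in 10 of the 12 fits, those of Hspg2, Sfrp5 and Slc22a6 in 9, Ier2 in 8 and Ptpn6 in 7. Leaving out Trem2KO M1, Trem2KO F3 or Plcg2KO F1 lost 18 genes each.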

How the data were processed

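RNA of whole cortex from 24 mice of 4 genotypes was sequenced from libraries made with the KAPA mRNA Hyperprep kit, per the labels' protocols. Reads were aligned with STAR 2.7.10a to mm10 and counted with featureCounts 2.0.3, per the submitters' processing notes. The authors deposited raw counts per gene, which are the values tested here, and a second table with expected counts and TPM. Rounded to integers, the deposited expected counts served in 1 alternative, and the deposited TPM values entered no test. No source used here states the tool behind the expected counts or the strand setting, so overlapping genes cannot be told apart.

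Genes were filtered by edgeR 4.0.16 (filterByExpr, minimum count 10; R 4.3.3), scaled by TMM and fitted over 24 libraries with genotype and sex (quasi-likelihood test, Benjamini-Hochberg, adjusted p under 0.05). A second fit added per-library offsets for GC content (GENCODE vM21 transcripts) and exon length, from natural splines with 5 degrees of freedom. Alternatives included DESeq2 1.42.0. The scripts were tested on simulated data. The labels do not say whether mice shared litters, so p-values measure the spread between these mice.

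The members and lists were chosen with earlier results of these data known. Named genes are Plcg2, Trem2 and Tyrobp, the 12 largest other changes in each direction called in both fits without overlap at an average of at least 1 log2 CPM, and up to 2 members per list with the smallest p among those called in both fits. Other list members are given by value and were picked after their values were seen. Of the 43 lists, 944 of 951 genes were in the table. Promoters came from RefSeq (GRCm38.p6). Results on some genes are not reported here.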

Additional observations from a re-analysis of the deposited data

Results flagged for a closer look

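The rule that flags a mouse has a nominal chance rate of about 1 in 20 groups, which was not measured here. In 6 of 118 groups of 6 mice examined, 1 mouse stood far from the others of its genotype. Of these, 4 were in Plcg2KO F1. Fcrls, the microglial Fc receptor-like gene, was at 53.3 CPM in Plcg2KO F2, against 29.9 to 36.3 CPM in the other Plcg2KO mice. Hapln1, the hyaluronan link protein, was at 29.3 CPM in Plcg2KO F1, against 21.3 to 23.4 CPM in the others. Homer1, the postsynaptic scaffold, was at 163 CPM in Plcg2KO M1, against 135 to 142 CPM in the others. Hspg2, perlecan, was at 3.50 CPM in Plcg2KO F1, against 4.26 to 4.70 CPM in the others. Plcg1 was at 49.0 CPM in Plcg2KO F1, against 56.9 to 60.8 CPM in the others. Six3 was at 21.2 CPM in Plcg2KO F1, against 15.8 to 16.9 CPM in the others.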

How the results depend on the processing

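The count of 2684 called genes came to 1073 under the replicate block (the shared code), 6712 with only both knockouts in the fit, 6047 without the Plcg2HET libraries, 11 in males alone, 6 in females alone, 966 with GC and length offsets and 549 with offsets and the replicate block. With offsets it was 32 in males alone and 13 in females alone, both chosen after seeing the data. It ranged from 769 to 2796 with 1 library left out. With offsets as well, chosen after seeing the data, it was 622, 645, 805, 882, 310 and 673 without Plcg2KO M1, M2, M3, M4, F1 and F2 in turn, and 299, 872, 761, 472, 668 and 366 without Trem2KO M1, M2, M3, F1, F2 and F3 in turn. It stayed within 1.5 times under RLE size factors, no filter, dropping the sex term, a floor of 1 on the mean CPM, DESeq2, expected counts, and without the 3 libraries rich in Rn45s. No direction reversed among the 58 named genes that were called under any alternative run. The replicate block ended the calls of Atp5j, Ccl9 and Six3, and with offsets those of 10 genes. Shared codes showed no pairing, with correlations of deviations of 0.0573 (M1), 0.0257 (M2), 0.00928 (M3), 0.0632 (F1) and 0.216 (F2), and 0 of 5 codes correlating best with their own number. In males alone 7 of the 58 genes stayed called and in females alone 5, in fits with fewer samples. The levels of Plcg2 and Trem2 gave p = 0.00216 in the exact permutation test with each pseudocount tried.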
